A study of Mus musculus with 2 samples.

Results

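The change examined was that of XX gonadal somatic cells over their first day in organ culture. Its members were chosen by their labels: the 4 libraries of XX cells cultured for 24 h with DMSO (replicates F4, F5, F6 and F9) were set against the 4 libraries of uncultured XX cells (F2, F3, F4 and F5), which makes 8 of the 39 labelled libraries. Embryos came from males of a 129T2svJ line carrying Oct4-eGFP, a reporter that is active in germ cells, mated to Swiss females. Gonads were taken at E12.5, each sample pooled several gonads, and somatic cells were sorted as GFP-negative cells either at once (0 h) or after 24 h as gonad-mesonephros explants in serum-containing medium with DMSO, the vehicle of the study's inhibitors; the mesonephros was removed before sorting. No inhibitor and no allele other than the reporter was part of these groups. Besides serum, the medium was supplemented with N-acetylcysteine, beta-mercaptoethanol, penicillin and streptomycin, Hepes and amino acids. The 0 h libraries carried neither culture nor DMSO, so culture, serum, vehicle and one further day of age cannot be told apart here. XY somatic cells handled in the same way (4 libraries at each time) are used below for comparison.

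At this age the ovary consists of germ cells, which begin to enter meiosis, and of somatic cells of several kinds. Supporting cells become pre-granulosa cells under WNT4 and RSPO1, which act through β-catenin, and under the transcription factor FOXL2; follistatin holds back activins, and the surface epithelium and stroma supply further cells. Cells in general adjust their lipid synthesis to supply. When membranes hold little sterol, the transcription factor SREBP2 is released and switches on the genes that make and take up cholesterol. SREBP1 switches on those for fatty acids. Sterol was not measured in these samples.

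The promoters of 3 genes of cholesterol synthesis are shown first, because most genes tested in that pathway rose, and another from the low-oxygen response, which was lower in part, is shown beside them. Each is the window of 250 bases upstream of the annotated start, written 5′ to 3′ on the strand of the gene from the GRCm39 reference and GENCODE annotation. In the first 3, capitals mark CACCCCAC, the core of the sterol element that SREBP2 binds; in the last they mark ACGTG, the core of the element bound by hypoxia-inducible factors.
Hmgcs1: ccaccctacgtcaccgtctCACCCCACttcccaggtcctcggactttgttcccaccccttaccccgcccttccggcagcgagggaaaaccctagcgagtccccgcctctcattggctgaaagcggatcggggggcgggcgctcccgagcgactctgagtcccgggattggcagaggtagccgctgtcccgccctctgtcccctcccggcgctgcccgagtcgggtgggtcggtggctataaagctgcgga
Sqle: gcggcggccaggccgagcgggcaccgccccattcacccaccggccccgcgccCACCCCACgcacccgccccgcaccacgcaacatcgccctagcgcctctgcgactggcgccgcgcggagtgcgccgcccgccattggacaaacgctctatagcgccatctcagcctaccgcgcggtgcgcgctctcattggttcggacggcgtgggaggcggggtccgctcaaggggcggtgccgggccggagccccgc
Acat2: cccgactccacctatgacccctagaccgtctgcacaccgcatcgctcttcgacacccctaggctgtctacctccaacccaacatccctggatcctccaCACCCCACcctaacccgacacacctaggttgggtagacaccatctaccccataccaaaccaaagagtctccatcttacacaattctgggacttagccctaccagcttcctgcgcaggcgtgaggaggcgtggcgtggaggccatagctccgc
Ankrd37: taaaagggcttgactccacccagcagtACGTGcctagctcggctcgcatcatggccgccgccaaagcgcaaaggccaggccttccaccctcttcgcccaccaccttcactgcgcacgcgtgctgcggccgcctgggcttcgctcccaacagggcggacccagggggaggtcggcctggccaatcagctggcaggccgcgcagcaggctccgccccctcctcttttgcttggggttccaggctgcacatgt
The windows lie at chr13:120151732-120151981 (plus strand) for Hmgcs1, chr15:59186632-59186881 (plus) for Sqle, chr17:13179642-13179891 (minus) for Acat2 and chr8:46452906-46453155 (minus) for Ankrd37. The marked letters begin 231, 198, 152 and 223 bases before the start, in the same order. On either strand, CACCCCAC was found in 4 of the 24 windows of the cholesterol genes tested (16.7%; Hmgcs1, Sqle, Acat2 and Stard4), against 2.92% of the windows of all 12722 protein-coding genes that were tested and had one. ACGTG, which is also contained in the E-box CACGTG, was found in 11 of 21 windows of the hypoxia genes (52.4%) and in 8 of 21 windows of the glycolysis genes (38.1%), against 20.9% of all windows. Over the other lists described below its share ran from 0% (heat shock) to 56.2% (clock). It was 55.6% for the meiotic genes, most of which rose. Among all genes that rose or fell by the criteria given below, ACGTG was in 18.2% and 19.7% of windows. CACCCCAC was in 4.16% and 4.33% of them. A match is a description of letters only, and binding was not measured.

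Depth and identity were checked before the changes were read. The 8 libraries held 1380707 to 3908704 counts (the fewest in 0 h F4, the most in 24 h F5) and 18441 to 22019 genes with a count, and totals did not separate the times (exact permutation test, two-sided, p = 0.286, where 4 against 4 can reach 0.0286). Across 8472 genes with a mean of at least 20 CPM, the count scaled to library size, log2 CPM correlated at 0.961 to 0.980 between libraries of one time and at 0.927 to 0.953 between times. No 2 libraries of one time agreed within counting noise (chi-square per degree of freedom 2.48 to 4.75). Nothing in the labels says whether the pools came from separate litters. The edgeR p-values and standard errors below rest on a spread between pools of a group. It was estimated over all 39 libraries in 10 groups, and not from these 8 alone. Nr5a1 and Wt1, which specify the gonad, stood at 221 to 300 CPM and 510 to 767 CPM, and Gata4 at 129 to 183 CPM, in all 8 libraries. Xist, expressed from the inactive X, was at 595 to 840 CPM and the Y-linked Ddx3y at 0 to 1.28 CPM. The highest count of any gene, mt-Rnr2 in each library, spanned 7825 to 9693, a ratio of 1.24, although totals spanned a ratio of 2.83. CPM values of genes with counts near that height, such as the globins at 0 h, were highest in the shallowest library (F4), and the part of depth in them was not tested.

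Over the first day 806 of 15390 genes rose and 362 fell, by the criteria of an FDR below 0.05 and at least a 1.5-fold change. FDR denotes throughout the Benjamini-Hochberg adjusted p of edgeR's quasi-likelihood test over all genes tested. These counts are 5.24% higher and 2.35% lower, and they are the background against which each gene list below is read. Without reference to a test, the 4 libraries at 24 h lay entirely above those at 0 h for 1306 genes (8.49%) and entirely below for 935 (6.08%). The median log2 fold change over all genes tested was 0.01. With a single library left out, the number called ranged from 958 to 1312. In the plot of change against level, cholesterol genes and most meiotic genes lay above the zero line, and most erythroid, macrophage and glycolysis genes below it.

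**Figure D1:**
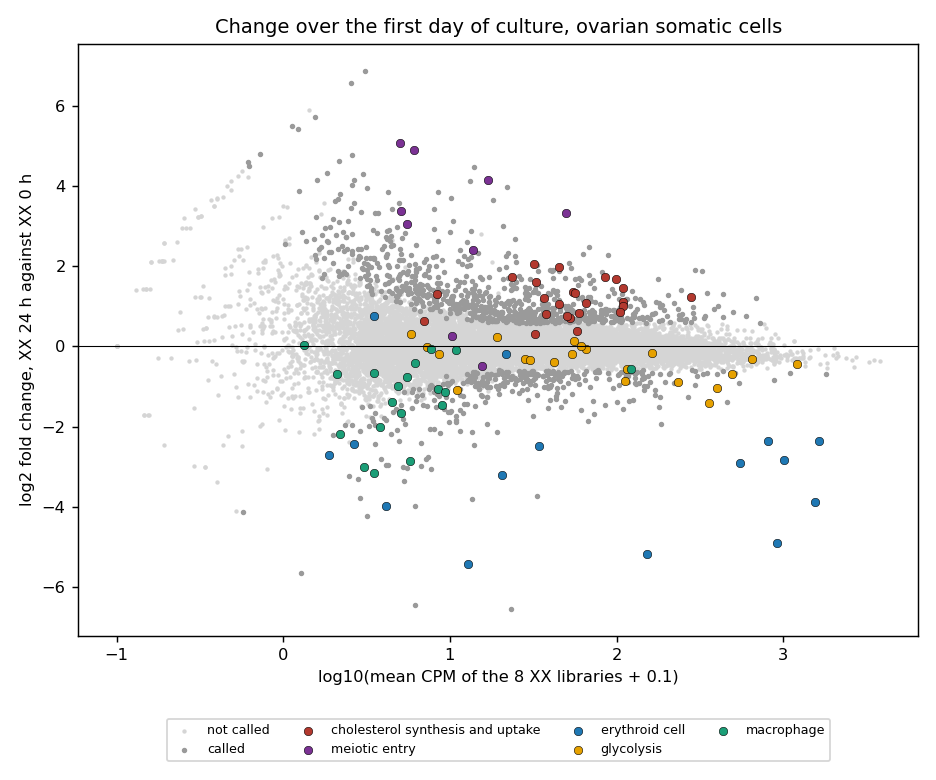
Log2 fold change of each tested gene between XX 24 h and XX 0 h (vertical axis) against its mean level (horizontal axis, log10 of CPM + 0.1) in the 8 XX libraries, with called genes in dark grey and 5 gene lists in colour. The 21 called cholesterol genes and 7 called meiotic genes lie above 0 and the 13 called erythroid genes lie below it.

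Cholesterol genes rose together. Of 24 genes of cholesterol synthesis and uptake tested, 21 rose and none fell, with a median log2 fold change of 1.16, and the summed level of the list went from 916 to 1012 CPM at 0 h to 1996 to 2439 CPM at 24 h. Hmgcs1, which encodes an early enzyme of the pathway and whose promoter carries the marked element, had 161, 156, 160 and 182 CPM at 0 h (F2, F3, F4 and F5, the order used below) and 361, 350, 438 and 418 CPM at 24 h (F4, F5, F6 and F9, likewise). Every cultured library lay well above every uncultured one, a log2 fold change of 1.24 ± 0.10 (SE, n = 4 and 4; FDR 4.61e-14).

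Some genes that close and trim the sterol ring, and some that build its precursors, were among those that rose most in the pathway. Lss, which encodes lanosterol synthase, had 17.1, 8.01, 9.25 and 13.9 CPM at 0 h and 39.6, 52.0, 58.4 and 57.6 CPM at 24 h, a 4.15-fold rise (log2 2.05 ± 0.19, FDR 7.79e-12). Msmo1, a sterol methyl oxidase, went from 16.1 to 20.8 CPM to 61.1 to 92.3 CPM (3.94-fold), and Cyp51, the lanosterol demethylase, from 30.8 to 48.5 CPM to 117 to 149 CPM (3.29-fold). The groups did not overlap for any of these. Fdps and Fdft1, which build the farnesyl and squalene precursors, rose 3.32-fold and 3.20-fold, and Sqle, the squalene epoxidase, 2.74-fold (47.0 to 62.4 CPM against 131 to 204 CPM). Fdps was uneven at 0 h, with 17.1 and 14.7 CPM in F2 and F3 but 5.40 and 5.26 CPM in F4 and F5.

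Transport and control genes rose too. Stard4, a sterol carrier, had 29.5, 31.2, 37.0 and 31.9 CPM at 0 h and 84.7, 72.6, 75.1 and 88.3 CPM at 24 h (log2 1.32 ± 0.16, FDR 1.14e-08). Acat2, which makes acetoacetyl-CoA, rose 2.00-fold, although it was spread at 24 h (115, 164, 104 and 200 CPM). Insig1, which retains SREBPs in the endoplasmic reticulum and is itself a target of them, rose 2.13-fold. Srebf2, which encodes SREBP2, rose by less, from 29.3 to 51.4 CPM to 55.2 to 71.0 CPM (log2 0.70 ± 0.14, FDR 0.000165), and with counts thinned to the smallest library it was under 1.5-fold at log2 0.58. The 3 members that did not pass were Idi1 (0.65 ± 0.31), Pmvk (0.38 ± 0.14) and Ebp (0.32 ± 0.17). In XY cells 23 of the 24 rose (median 1.26), and none of the 24 differed between the sexes in its change.

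Fatty acid genes rose as well: 11 of 15 tested rose and none fell (median log2 0.83), and all 15 had a positive fold change. Scd1, a desaturase that makes oleate, had 3.42, 4.90, 1.54 and 6.01 CPM at 0 h and 16, 26.5, 18.2 and 20.5 CPM at 24 h, a 4.76-fold rise (log2 2.25 ± 0.29, FDR 5.64e-08). Fasn, the fatty acid synthase, went from 120 to 147 CPM to 230 to 263 CPM (1.89-fold), Acaca, which supplies its malonyl-CoA, rose 1.78-fold, and Srebf1, which encodes SREBP1, 2.27-fold (13.4 to 23.1 CPM against 33.0 to 45.7 CPM). Scd2, the more abundant desaturase here, rose from 232 to 287 CPM to 417 to 608 CPM. Elovl5 (0.42), Acss2 (0.72), Insig2 (0.33) and Me1 (0.15, log2) did not pass the criteria. With any single library left out, 21 or 22 cholesterol genes and 9 to 12 fatty acid genes were called. Tests that require the change itself to exceed 1.5-fold called fewer, 13 and 5 with edgeR's glmTreat and 12 and 1 with voom and treat.

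**Figure D2:**
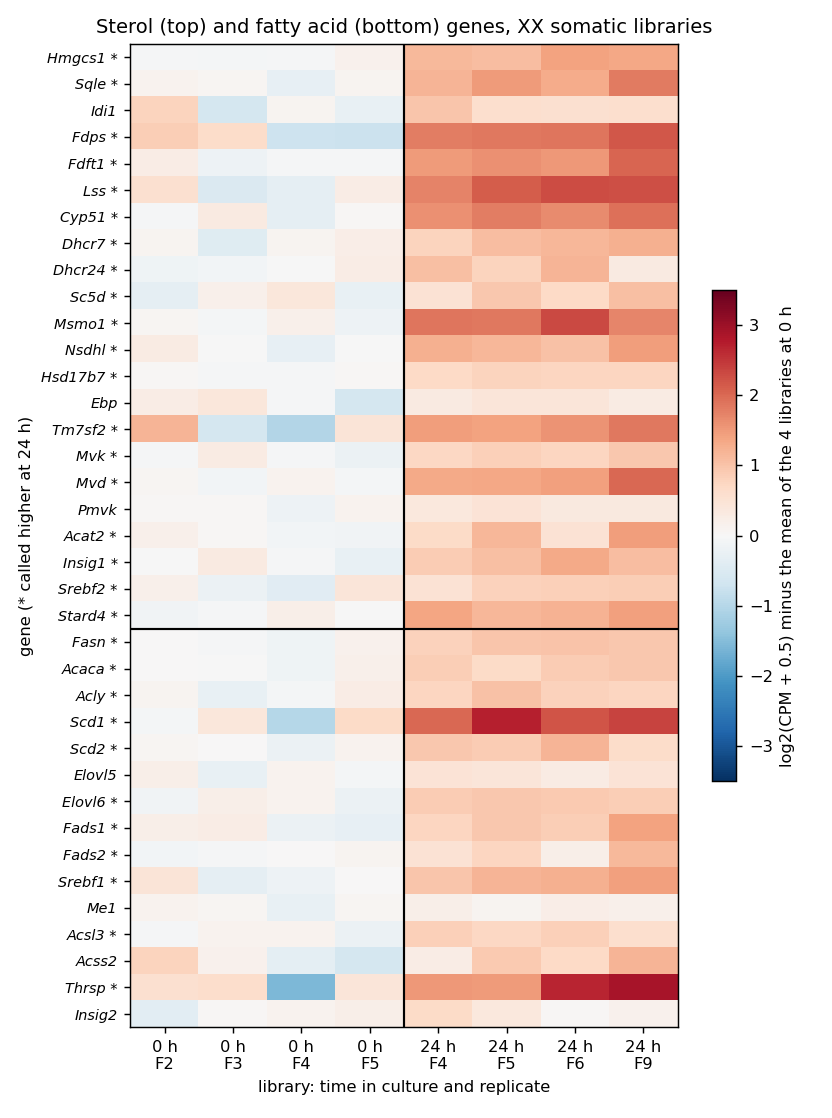
Level of cholesterol genes (above the horizontal line) and of each fatty acid gene (below it) in the 8 XX libraries, as log2(CPM + 0.5) minus the mean of the 4 libraries at 0 h; blue is below and red above that mean, and asterisks mark called genes. The 4 columns at 24 h are red for nearly all genes, with Lss, Msmo1, Scd1 and Thrsp the darkest.

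Supporting cell genes were split. Of 19 pre-granulosa genes tested, 5 rose (3 without 0 h F2 or without 24 h F6) and 3 fell, with a median of 0.02. Foxl2 had 48.3, 52.5, 87.9 and 104 CPM at 0 h and 156, 128, 178 and 143 CPM at 24 h (log2 1.05 ± 0.18, FDR 2.70e-05); the uncultured libraries themselves fell into a lower and a higher pair, and all 4 cultured libraries lay above both. Inha, the inhibin α subunit made by granulosa cells, had 173, 96.6, 121 and 107 CPM against 363, 452, 499 and 555 CPM, a 3.75-fold rise (log2 1.91 ± 0.15, FDR 4.88e-14). Cdkn1b, which encodes the cell cycle inhibitor p27, rose 1.63-fold. Esr2, oestrogen receptor β, was at 0, 0.890, 0 and 2.25 CPM before and 4.17, 3.68, 8.61 and 2.37 CPM after culture (FDR 0.00818), a call lost without 0 h F2 (FDR 0.0513) or without 24 h F6 (FDR 0.0516).

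Follistatin went the other way. Fst, a marker of the foetal ovary that binds activins, had 205, 256, 298 and 304 CPM at 0 h and 94.4, 69.9, 89.0 and 120 CPM at 24 h, a 2.85-fold fall (log2 -1.51 ± 0.16, FDR 1.32e-10). Msx1, a homeobox gene induced by BMP in the foetal ovary, fell 2.56-fold, from 89.8 to 118 CPM to 27.3 to 58.3 CPM. Nr0b1, which encodes the nuclear receptor DAX1, fell 1.75-fold. Rspo1 had 176 to 218 CPM at 0 h and 252 to 275 CPM at 24 h, a separation without overlap whose size (log2 0.42 ± 0.10) was below 1.5-fold, and Wnt4 went from 390 to 486 CPM to 328 to 359 CPM (-0.32 ± 0.11, FDR 0.0592). Irx3, a pre-granulosa transcription factor, was at 507 to 604 CPM and 525 to 716 CPM (0.22 ± 0.14). Of 15 broader supporting and progenitor genes 1 rose (Star) and 1 fell, the latter call lost without 0 h F5, 24 h F4 or 24 h F9; Nr5a1 had -0.27 ± 0.10 (FDR 0.0527).

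WNT target genes were unevenly placed. Of 19 tested, 3 fell (3 or 4 with a library left out) and 2 rose (1 without 0 h F4, 0 h F5, 24 h F6 or 24 h F9), with a median log2 fold change of -0.36 and 15 of 19 negative. Sp5, a direct β-catenin target, had 52.6, 65.0, 63.2 and 46.9 CPM before and 22.6, 19.4, 26.8 and 21.3 CPM after culture (log2 -1.34 ± 0.24, FDR 4.32e-05), with a wide gap between the groups. Lef1, a DNA-binding partner of β-catenin, went from 152 to 168 CPM to 85.0 to 113 CPM (-0.70 ± 0.14), and Tnfrsf19, a receptor gene induced by WNT, from 137 to 194 CPM to 71.4 to 104 CPM (-0.92 ± 0.14). Axin2, the negative feedback gene most often used as a readout of the pathway, had 82.8 to 101 CPM and 82.4 to 125 CPM. Its groups overlapped (0.07 ± 0.16, FDR 0.842). With the replicate number as a block, which rests on F4 and F5 alone, the value was -0.12. Dkk2, a secreted modulator of WNT signalling, was among the genes that rose (0, 3.56, 0.771 and 1.5 CPM against 9.72, 7.36, 12.0 and 4.73 CPM).

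In the BMP and activin pathway 6 of 27 genes fell and 2 rose. The targets Id1 and Id3, inhibitors of differentiation factors, fell: Id1 had 166, 185, 96.4 and 98.7 CPM at 0 h and 75.3, 85.4, 74.1 and 48.5 CPM at 24 h (log2 -0.95 ± 0.17, FDR 5.18e-05), and Id3 had 264, 272, 218 and 197 CPM against 112, 120, 99.5 and 81.2 CPM (-1.20 ± 0.13, FDR 2.00e-10). Neither gene overlapped between the times, although the uncultured libraries of Id1 fell into a higher pair (F2 and F3) and a lower pair. Among ligands, Bmp5 fell 3.56-fold from 4.90 to 7.51 CPM, and Bmp2, the ligand expressed by ovarian supporting cells, had 84.0 to 116 CPM and 78.5 to 104 CPM (-0.25 ± 0.16, FDR 0.365). Inhba, the subunit of activin A, rose 4.04-fold, from 5.56, 1.78, 0 and 10.1 CPM to 22.2, 20.1, 21.0 and 19.3 CPM. The rises in Inha and Inhba and the fall in Fst thus concerned both subunits of inhibin A and an activin binder, and protein was not measured. Inhbb, Fstl1, Fstl3, Acvr2a and Acvr2b, of the same list, were not called.

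**Figure D3:**
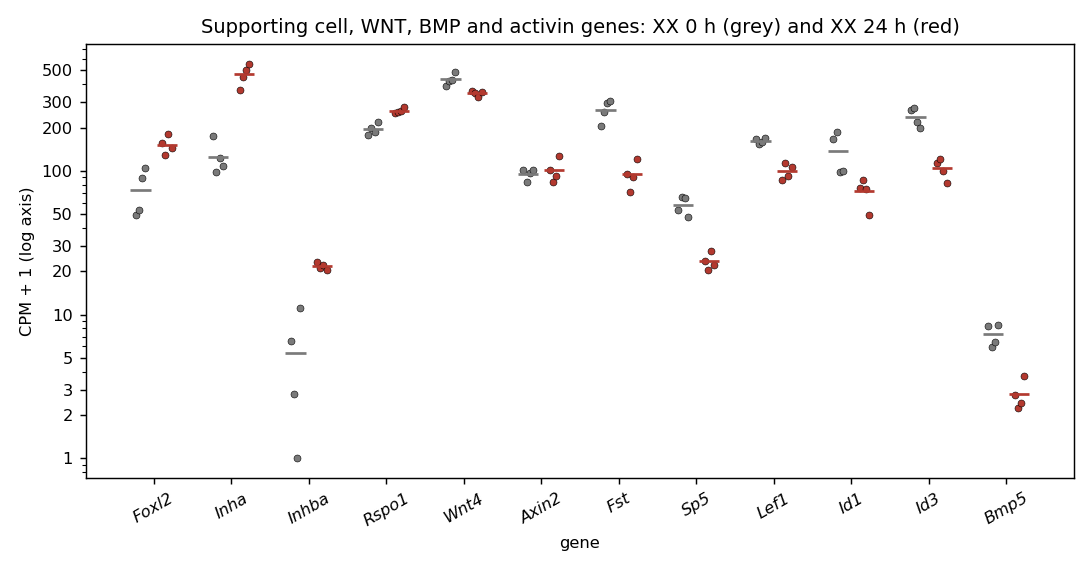
CPM + 1 on a log axis for 12 supporting cell, WNT, BMP and activin genes, with 1 point for each of the 4 XX libraries at 0 h (grey) and the 4 at 24 h (red); horizontal lines are means. Foxl2, Inha and Inhba are higher at 24 h, Fst, Sp5, Lef1, Id1, Id3 and Bmp5 lower, and Axin2 overlaps.

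Steroidogenic genes moved in both directions. Hsd3b6, a 3β-hydroxysteroid dehydrogenase gene at chr3:98712820-98721765 (minus strand, GRCm39), had 41.5, 42.3, 60.9 and 37.5 CPM at 0 h and 1.39, 0, 0.478 and 0 CPM at 24 h (log2 -6.53 ± 0.72, FDR 8.50e-10). Its paralogue Hsd3b1 moved the opposite way, from 23.3 to 47.0 CPM to 65.2 to 101 CPM (1.21 ± 0.22, FDR 4.53e-05); the 2 genes are similar in sequence, and how reads shared between them were counted was not tested. Star, which carries cholesterol into mitochondria, rose 2.25-fold (21.6 to 32.5 CPM against 49.3 to 69.7 CPM), and Scarb1, the receptor for high-density lipoprotein, 2.16-fold (43.9 to 49.0 CPM against 90.3 to 119 CPM). Cyp11a1, which cleaves the cholesterol side chain, had 30.4, 26.7, 32.4 and 16.9 CPM before and 7.98, 14.0, 9.09 and 18.1 CPM after culture; its groups overlapped, and its call (log2 -1.05 ± 0.36, FDR 0.0438) was lost without any one of 0 h F2, F3 or F4 or 24 h F4, F5 or F6 (FDR 0.0667 to 0.135). Of the 11 foetal Leydig cell genes tested, 3 rose and 2 fell (1 without 0 h F2 or F4 or 24 h F4, F5 or F6), and Cyp17a1, the marker of androgen synthesis, had 4.62 to 9.41 CPM and 12.8 to 18.4 CPM (FDR 0.0854).

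Sertoli cell genes were tested as a check on the ovarian identity. Of 20 genes, 4 rose and 1 fell (0 to 2 with a library left out: 0 without 0 h F2 or F3 or 24 h F4, F5 or F6, and 2 without 0 h F4). Their summed level was 245 to 382 CPM at 0 h and 385 to 460 CPM at 24 h. In XY cells the same sum was 2977 to 3468 CPM at 0 h and 1704 to 2717 CPM at 24 h, and 15 of the 20 genes fell. Sox9, a transcription factor gene that acts downstream of Sry in Sertoli cell commitment, was at 133, 157, 54.7 and 69.5 CPM at 0 h. At 24 h it was at 60.7, 70.2, 66.5 and 87.9 CPM (-0.56 ± 0.20, FDR 0.0621). F2 and F3 at 0 h lay above all the other libraries. The block on the replicate number, which rests on F4 and F5 alone, gave 0.07. The members that rose included Mro (12.4 to 19.2 CPM against 35.5 to 56.4 CPM), Nedd9, a scaffold protein gene (33.0 to 41.5 CPM against 60.7 to 83.6 CPM), and Defb19, a β-defensin gene (32.9 to 39.3 CPM against 93.0 to 120 CPM).

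Transcripts of blood cells were lower after the day in culture. Of 15 erythroid genes 13 fell and none rose (median log2 -2.82), and their share of all counts went from 1.15% ± 0.255 to 0.150% ± 0.0511 (SD, n = 4 libraries each). Among the globins, those of the embryo, made by primitive red cells, fell furthest: Hbb-bh1 had 227, 321, 359 and 276 CPM at 0 h and 13.5, 8.34, 8.13 and 1.58 CPM at 24 h (log2 -5.18 ± 0.71, FDR 2.71e-07), Hba-x fell 29.9-fold and Hbb-y 14.6-fold. The adult globins fell less, Hba-a1 5.16-fold (2180 to 3737 CPM against 359 to 818 CPM) and Hbb-bt 7.51-fold; Hba-a1 and Hba-a2, and Hbb-bs and Hbb-bt, are near-identical pairs whose reads could be split between copies. Slc4a1, the red cell anion exchanger, went from 16.7, 16.5, 37.0 and 29.7 CPM to 1.04, 0.245, 0.957 and 0 CPM, and Alas2, the first enzyme of erythroid haem synthesis, fell 9.25-fold. Car2, a carbonic anhydrase gene that red cells share with other cells, fell 5.55-fold. Gata1, the erythroid transcription factor, had 1.54 to 3.56 CPM and 3.47 to 5.15 CPM (0.75 ± 0.58, FDR 0.453). In bulk samples of this kind, fewer cells of a type and less RNA per cell cannot be told apart.

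Macrophage genes were lower in part: 8 of 19 tested fell (5 without 24 h F6 or without 24 h F9) and none rose, with 18 of 19 negative. Their summed level was 278 to 287 CPM at 0 h and 153 to 178 CPM at 24 h. Mrc1, the mannose receptor of tissue macrophages, had 7.27, 10.7, 9.25 and 12.4 CPM before and 1.74, 0.491, 0.478 and 2.76 CPM after (log2 -2.86 ± 0.59, FDR 0.000452), and F13a1, a clotting factor gene, and Pf4 fell 7.99-fold and 8.95-fold. The defining genes C1qa (-1.37 ± 0.52, FDR 0.0752) and Csf1r (-1.15 ± 0.40, FDR 0.0536) were lower in mean without passing, and 6 of the 25 genes listed, among them Adgre1 with 10 counts in all at 0 h and 12 at 24 h, were too low to test. Neutrophil genes gave no call among 8 tested.

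**Figure D4:**
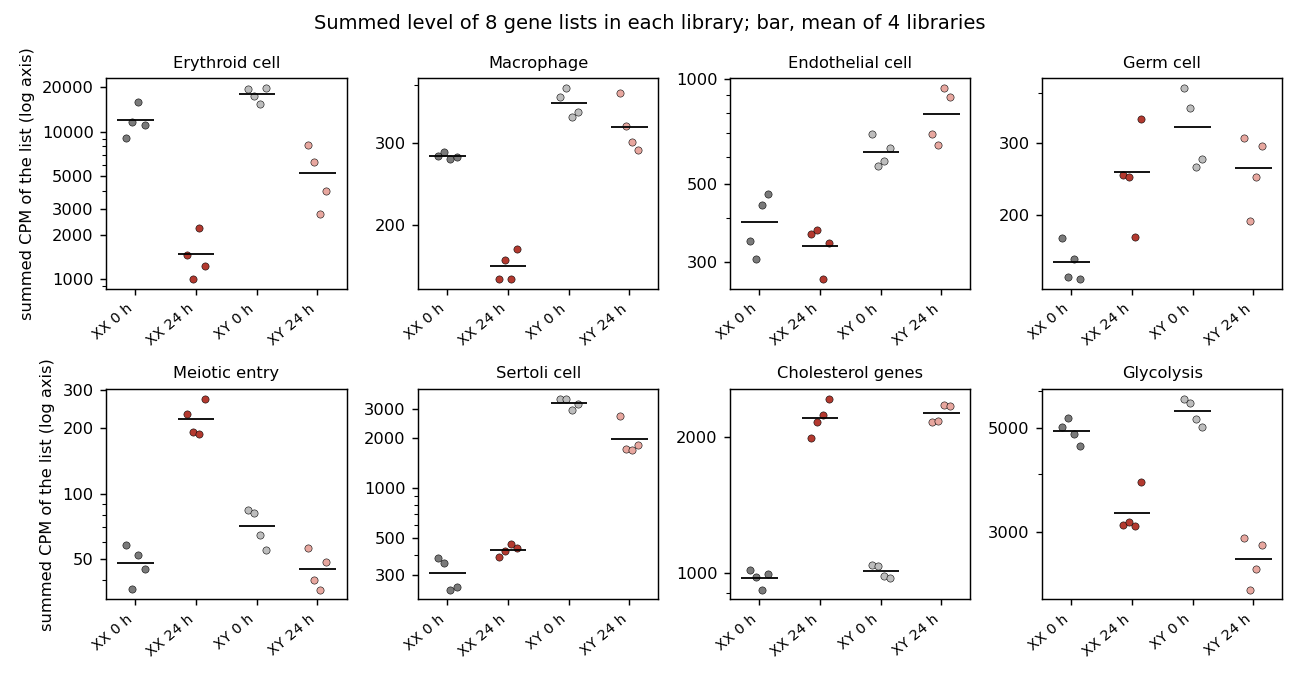
Summed CPM of 8 gene lists on log axes, with 1 point for each of the 4 libraries of XX 0 h, XX 24 h, XY 0 h and XY 24 h and a bar at the mean. Erythroid sums fall in both sexes, the meiotic sum rises in XX from 36.5 to 58.1 CPM at 0 h to 188 to 274 CPM at 24 h, and cholesterol sums rise in both.

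Vascular genes changed individually. Of 30 endothelial genes 4 fell and 1 rose (2 without 0 h F5), with a median of -0.06, and Pecam1, the general marker, was at 7.12 to 13.1 CPM and 10.0 to 15.5 CPM (0.22 ± 0.28). Aplnr, the apelin receptor of venous and sprouting endothelium, had 20.5, 20.5, 25.4 and 29.3 CPM at 0 h and 4.17, 6.38, 0.957 and 4.34 CPM at 24 h (log2 -2.46 ± 0.36, FDR 8.19e-07). Eng, a TGFβ co-receptor gene, fell 2.85-fold and Plvap, a component of fenestrae, 3.08-fold. Gja5, a connexin of arteries, was the member that rose, from 3 counts over the 4 uncultured libraries to 73 over the cultured ones, a ratio of 18.0 with a 95% counting interval of 5.90 to 89.1. Pericyte genes were divided in the same manner: Rgs5 fell from 21.4 to 30.8 CPM to 2.76 to 10.1 CPM (-1.92 ± 0.28, FDR 1.04e-06), whereas Kcnj8 and Abcc9, the subunits of a potassium channel of mural cells, rose 3.36-fold and 4.91-fold and Heyl, a Notch target, 2.63-fold.

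Most meiotic genes tested rose in this GFP-negative fraction. Of 16 meiotic genes listed, 9 could be tested, of which 7 rose and none fell (median log2 3.32). For 7 members the cultured libraries lay above all uncultured ones. Those too low to test included Meioc, with 1 count in all at 0 h and 38 at 24 h, and Spo11 and Msh4, each with 4 and 4. A gene near 0 at 0 h passed the filter only through groups where it was higher, so the filter shapes the share called and the median. Stra8 (chr6:34897098-34916279, plus strand, GRCm39), the retinoic acid-induced gene needed for meiotic entry, had 3 counts over the 4 libraries at 0 h and 139 at 24 h, where its level was 11.5, 13, 6.70 and 15.4 CPM; the ratio was 34.2 (95% counting interval 11.5 to 168). Sycp1, a component of the synaptonemal complex, had 1.28, 0.890, 1.54 and 3 CPM against 39.9, 25.8, 25.8 and 35.5 CPM (log2 4.15 ± 0.43, FDR 1.41e-10). Smc1b, a meiotic cohesin, went from 8.12, 5.79, 17 and 7.88 CPM to 94.8, 78.5, 74.1 and 112 CPM, a 9.97-fold rise (FDR 6.79e-13). Sycp2, Syce1 and Sycp3, further parts of the complex, rose 10.4-fold, 8.22-fold and 5.26-fold. Rec8, another cohesin, had 4.62 to 11.3 CPM and 6.60 to 14.7 CPM (0.25 ± 0.43), and Taf7l -0.49 ± 0.35.

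General germ cell genes showed the same direction with smaller changes. Of 20 listed, 15 passed the same filter, of which 8 rose (6 to 8 with a library left out) and 1 fell. Ddx4, the vasa homologue, had 0.855, 2.23, 0 and 0.751 CPM before and 7.29, 10.1, 5.74 and 11 CPM after culture (log2 2.99 ± 0.57, FDR 0.000138), and Dazl, an RNA-binding protein gene that licenses germ cells, 17.4 to 23.1 CPM against 41.1 to 90.3 CPM (1.70 ± 0.27). Sox2 and Sall4, genes of the pluripotency network, rose 6.21-fold and 4.77-fold, Utf1 fell 2.23-fold, and Dppa3 was at 28.5 to 46.2 CPM and 26.8 to 59.5 CPM (0.29 ± 0.26). Pou5f1, the gene from which the sorting reporter is derived, was too low to test, with 11 counts over the 4 libraries at 0 h and 21 at 24 h. The summed germ cell list was 139 to 175 CPM and then 176 to 345 CPM, a small part of each library. From which cells of a GFP-negative sort these transcripts came was not tested.

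Glycolysis genes were lower in part. Of 21 tested 6 fell, none rose and 15 were not called (median log2 -0.32), and the summed level went from 4580 to 5251 CPM to 3090 to 3834 CPM. Eno1, an enolase gene with a near-identical copy (Eno1b) between which reads could be split, had 545, 554, 525 and 457 CPM at 0 h and 173, 198, 180 and 235 CPM at 24 h (log2 -1.40 ± 0.12, FDR 1.11e-12). Ldha, which turns pyruvate to lactate, fell from 487 to 606 CPM to 228 to 299 CPM (-1.03 ± 0.11), Tpi1, triose phosphate isomerase, from 281 to 318 CPM to 146 to 185 CPM, Pfkl, a subunit of phosphofructokinase, 1.82-fold and Pkm, pyruvate kinase, 1.60-fold. The glucose transporter Slc2a1 had 34.7 to 60.8 CPM and 33.0 to 39.9 CPM (-0.39 ± 0.17, FDR 0.137). The groups did not overlap for any of the enzymes named.

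Low-oxygen response genes were lower in part: 7 of 21 tested fell (5 to 7 with a library left out) and 1 rose (2 without 0 h F2 or F5 or 24 h F5 or F9). Ankrd37, whose promoter is shown above with its ACGTG, had 5.99, 8.46, 17.7 and 15.8 CPM at 0 h and 3.47, 1.47, 4.78 and 1.97 CPM at 24 h, a 4.17-fold fall (log2 -2.06 ± 0.45, FDR 0.000790). Ndrg1 fell 2.04-fold (46.6 to 66.3 CPM against 25.3 to 31.5 CPM), Adm, which encodes adrenomedullin, 1.97-fold, Pdk1, a kinase that holds pyruvate out of mitochondria, 1.83-fold, and Hilpda, a lipid droplet protein gene, 1.66-fold. Loxl2, a collagen cross-linking enzyme that is also a target of hypoxia-inducible factors, was the member that rose, 1.68-fold. Oxygen was not measured in the explants.

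Some proliferation genes fell. Of 23 mitotic genes 6 fell and none rose (3 without 0 h F2 and 2 without 24 h F6, and up to 9), with 22 of 23 negative and a median of -0.46. Plk1, the mitotic kinase, had 29.9, 35.6, 23.1 and 23.7 CPM against 14.9, 15.2, 10.0 and 16.6 CPM (log2 -0.98 ± 0.20, FDR 0.000525), and Ube2c, which directs cyclin destruction, fell 1.77-fold. Mki67 had 121 to 201 CPM and 112 to 151 CPM, with overlap (-0.21 ± 0.14). Only Gins2, a helicase subunit gene, fell among 24 replication genes (-0.70 ± 0.17), and the median of that list was -0.20. The CDK inhibitor genes did not move together: besides the rise in Cdkn1b, Cdkn1a, which encodes p21, fell from 195 to 213 CPM to 88.9 to 116 CPM (-0.98 ± 0.15, FDR 2.28e-06) and the imprinted Cdkn1c, which encodes p57, from 1833 to 2708 CPM to 1201 to 1505 CPM (-0.70 ± 0.13).

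Matrix genes were higher in part. Of 36 collagen and matrix genes 14 rose (11 to 21 with a library left out), 1 fell and 21 were not called, with a median of 0.54, and 33 of 36 had a positive fold change. Col1a1 had 159, 185, 170 and 180 CPM at 0 h and 308, 315, 345 and 233 CPM at 24 h (log2 0.79 ± 0.13, FDR 1.47e-05), and Col6a1 went from 108 to 144 CPM to 234 to 271 CPM (1.02 ± 0.10). Low at the start, Col8a1 rose 5.77-fold, Tnc, a tenascin of remodelling stroma, 3.33-fold and Eln, elastin, 3.22-fold. The basement membrane collagen Col4a1 rose 1.70-fold. Col12a1, a fibril-associated collagen, fell 2.51-fold, from 149, 185, 189 and 199 CPM to 68.7, 78, 63.1 and 76.1 CPM. Of 15 matrix turnover genes 2 rose (1 without 24 h F5 or F9).

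Contractile, stromal and surface genes rose in part. Acta2, smooth muscle actin, had 42.3, 26.3, 28.5 and 39 CPM against 97.5, 132, 104 and 81.6 CPM (log2 1.59 ± 0.15, FDR 7.79e-12), Tagln rose 3.11-fold and Myh11, smooth muscle myosin, 2.49-fold, among 5 of 18 contractile genes that rose; none fell (1 without 0 h F5 or 24 h F9). Of 19 interstitial genes 4 rose, including the proteoglycans Dcn (2.70-fold) and Lum, which went from 4.45 to 8.55 CPM to 31.9 to 39.6 CPM (4.80-fold), and the chemokine Cxcl12 (1.64-fold). Krt19, a keratin of the surface epithelium, had 37.2, 37.8, 13.9 and 28.2 CPM before and 138, 135, 178 and 142 CPM after culture, with a wide gap (log2 2.28 ± 0.16, FDR 1.18e-15). Upk1b and Upk3b, uroplakin genes of the mesothelium, rose 5.69-fold and 1.79-fold and Gpm6a 3.15-fold, among 4 of 14 surface genes that rose, while 1 fell (none without 0 h F5, 24 h F4 or 24 h F9). The mesonephric duct genes gave 1 higher call, the epithelial adhesion gene Epcam (7.57 to 13.3 CPM against 21.5 to 39.7 CPM), and 1 lower call, which was lost without 0 h F3; Pax8 was at 24.8 to 27.4 CPM and 15.8 to 25.2 CPM (-0.43 ± 0.26), and Pax2 had 6 counts in all at 0 h and 5 at 24 h.

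Interferon and inflammation genes were higher in part: 7 of 16 tested rose (3 without 0 h F5) and none fell, with a median of 1.14, and 9 were not called, among them the interferon-induced genes Isg15, Ifit1, Ifit3 and Irf7. Bst2, an interferon-induced gene whose product restricts viruses, had 16.7, 20.0, 23.1 and 22.5 CPM at 0 h and 34.7, 43.9, 40.2 and 35.5 CPM at 24 h (log2 0.92 ± 0.17, FDR 8.37e-05). Ifitm3, another such gene, rose 1.76-fold (56.7 to 67.7 CPM against 97.0 to 128 CPM). The groups did not overlap for either gene.

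Genes that report growth factor signalling moved in both directions. Of 28 immediate-early genes 4 rose (7 without 24 h F9) and 3 fell (1 without 0 h F2 or F3): Egr2, Junb and Gadd45b rose 2.06-fold, 1.70-fold and 1.92-fold, while Klf4 had 184, 178, 133 and 190 CPM against 39.9, 53.7, 68.4 and 108 CPM (log2 -1.37 ± 0.30, FDR 0.000823). Of 14 ERK feedback genes 2 rose (0 without 0 h F3 or 24 h F6, 1 without 0 h F4 or F5 or 24 h F5, and 4 without 0 h F2) and 3 fell, among them the phosphatase gene Dusp4, which was uneven at 0 h (33.3, 35.2, 18.5 and 7.13 CPM against 9.76 ± 2.35 CPM, SD, at 24 h), and Phlda1 (109 to 146 CPM against 37.3 to 57.9 CPM; -1.45 ± 0.15, FDR 1.28e-10). In the insulin and IGF list 5 of 16 rose and 2 fell. The fallers were the binding proteins Igfbp2 (171 to 210 CPM against 86.6 to 104 CPM; -1.08 ± 0.16) and Igfbp4 (1.62-fold), whereas Igfbp6, Igfbp7 and the stanniocalcins Stc1 and Stc2, which block release of IGF, rose 1.77-fold to 2.18-fold.

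Amino acid response genes gave 4 lower calls among 28 (2 without 0 h F3 or F4 or 24 h F5 or F9) and 1 higher call (2 without 0 h F4 or 24 h F4, F5 or F9, and 4 without 0 h F5). Asns, asparagine synthetase, had 217, 223, 213 and 170 CPM before and 92.0, 122, 95.2 and 138 CPM after (log2 -0.87 ± 0.16, FDR 6.55e-05), and Phgdh, the first enzyme of serine synthesis, fell 1.65-fold. Nupr1, a stress-induced transcriptional regulator, rose 7.29-fold, from 1.34 to 5.13 CPM to 19.4 to 34.0 CPM. The stress lists gave few calls: 1 of 20 genes of protein folding in the endoplasmic reticulum rose (0 to 2 with a library left out: none without 0 h F4 or 24 h F9, and 2 without 0 h F3 or F5 or 24 h F4 or F6), 1 of 15 heat shock genes fell (and 1 rose without 0 h F5 or 24 h F9), and none of 18 oxidative stress genes passed (1 without 0 h F4 or 24 h F5 or F6). Of 18 p53 targets 2 rose (1 without 0 h F4 or 24 h F5 or F6) and 1, Cdkn1a, fell.

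Of the lists not yet given, none had more than 3 calls in one direction. Retinoic acid genes had 2 higher and 1 lower of 18 (2 lower without 0 h F2). Clock genes had 1 higher of 16 (2 without 0 h F3 or 24 h F9), and glucocorticoid genes 1 higher and 2 lower of 10. Targets of YAP and SRF had 3 higher and 2 lower of 17 (1 lower without 0 h F3), and imprinted growth genes 2 and 2 of 16 (1 higher without 0 h F3, F4 or F5 or 24 h F4 or F9). Of 10 histone genes 2 rose (and 1 fell without 24 h F4). No call was made among the 15 mitochondrial genome transcripts, whose share of counts was 1.51% ± 0.166 and 1.33% ± 0.167 (SD, n = 4; exact permutation test, two-sided, p = 0.229), or the 6 sex chromosome genes.

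Beyond the lists, the genes with the largest changes were taken by rule: 15 in each direction among called genes with at least 5 CPM in mean at one time and no overlap. Pln, phospholamban, which restrains the calcium pump of muscle, had no count at 0 h and 67 counts at 24 h (6.94, 4.66, 6.70 and 5.52 CPM), which makes it at least 16.5-fold higher against a floor of 3 counts over the group. Cacng5, a calcium channel γ subunit gene, rose from 1.71, 0, 0.771 and 1.88 CPM to 21.5, 26.7, 29.7 and 29.2 CPM (log2 4.47 ± 0.49, FDR 9.83e-10). Slc35f1 rose 15.8-fold (1.13 to 4.28 CPM against 28.8 to 55.2 CPM), Kcnk1, a potassium channel gene, 13.1-fold and Slc18a2, the vesicular monoamine transporter gene, 12.6-fold (2.23 to 3.08 CPM against 22.1 to 47.8 CPM). A1bg, Zg16 and Eppin rose 11.8-fold, 10.8-fold and 10.7-fold. Tex101, a germ cell surface protein gene, had 2 counts at 0 h and 111 at 24 h (ratio 40.9, 95% counting interval 11.1 to 342), and Gldc, the glycine decarboxylase gene, 2 and 61 (22.5, interval 5.97 to 190). The rest were Stra8, Sycp1, Gja5 and 2 identifiers with no name in the annotation used.

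The decreases taken by that rule were, besides Hsd3b6, mainly of erythroid genes. Vgll2, a transcriptional cofactor gene, had 97 counts at 0 h (8.12 to 17.7 CPM) and 1 at 24 h, a ratio of 131 with a 95% counting interval of 23.1 to 5247. Smim10l2a had 58.6, 60.1, 61.7 and 66.5 CPM before and 3.12, 5.40, 1.91 and 7.49 CPM after culture, a 13.3-fold fall with a narrow spread at 0 h (log2 -3.73 ± 0.32, FDR 5.05e-13). Sprr2a1, a cornified envelope gene of a multigene family whose reads could be split, fell 13.8-fold. Slc4a1, Hbb-bh1, Hba-x, the pseudogene Hbb-bh0, Hbb-y, Trim10, Ermap and Alas2 are expressed in red cells, and the others reported here were Pf4 and Gm28320, a long noncoding RNA with 47 counts at 0 h and 3 at 24 h (ratio 21.2, interval 6.84 to 107).

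Of the most abundant transcripts, only globins were called. The mitochondrial ribosomal RNA mt-Rnr2 (log2 -0.36 ± 0.17), the cytochrome b transcript mt-Cytb (-0.34 ± 0.15), the nuclear noncoding RNA Malat1 (-0.35 ± 0.18), the ribosomal protein gene Rpl41 (-0.51 ± 0.15) and Actb (-0.30 ± 0.15) all had slightly negative values, none called. These genes lie near the highest counts described above, and mean totals were 2195264 at 0 h and 2848753 at 24 h. The pseudogenes Gm28437, Gm28661 and Gm29216, which are nuclear copies of mitochondrial sequence, were among the 10 highest at one or both times, and their reads cannot be told apart from those of the mitochondrial genes.

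XY somatic cells went through the same day in the same library set, and 1348 of 15390 genes rose (8.76%) and 855 fell (5.56%) in them. Of the 806 genes that rose in XX, 316 also rose in XY and 44 fell; of the 362 that fell in XX, 124 also fell in XY and 19 rose. The changes themselves were compared by a test of their difference: it was higher in XX for 513 genes (3.33%) and lower for 409 (2.66%). The genes named here are the 10 with the lowest FDR of that test. Chchd10, which encodes a mitochondrial cristae protein, had 167, 135, 128 and 121 CPM at XX 0 h and 447, 471, 566 and 557 CPM at XX 24 h, while XY went from 511 to 584 CPM to 251 to 444 CPM; the difference was 2.68 ± 0.21 on the log2 scale (FDR 1.98e-13). Socs2, a suppressor of cytokine signalling, rose 3.61-fold in XX and fell in XY from 168 to 221 CPM to 105 to 137 CPM (difference 2.53 ± 0.22).

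The other genes of that set differed in their course. Pak3, a kinase of the cytoskeleton, had 21.8, 15.1, 27.0 and 20.3 CPM against 97.2, 99.3, 150 and 118 CPM in XX (log2 2.49 ± 0.16, FDR 2.51e-16), with 106 to 138 CPM and 140 to 164 CPM in XY, where it was not called, and St3gal4, a sialyltransferase gene, rose 4.23-fold in XX to 66.6 to 92.3 CPM, with 80.8 to 106 CPM and 71.6 to 81.3 CPM in XY. Tmem184a rose 2.73-fold in XX and fell in XY. Col18a1, Nopchap1 and Arhgdig were not called in XX (0.50, 0.44 and 0.42 on the log2 scale) and fell in XY by 1.12, 1.16 and 1.91 on the log2 scale, which made up most of their difference. Smc1b and Stra8 complete the set: Stra8 had 11.4 to 16.1 CPM in XY at 0 h and 0 to 1.43 CPM at 24 h, so the sexes ran in opposite directions (difference 8.59 ± 0.88, FDR 5.46e-10), and its fitted value in XX rests on 3 counts at 0 h.

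Several genes described above differed between the sexes in the other direction. Fst fell in XX, while XY cells had 1.04 to 2.30 CPM and 2.68 to 4.72 CPM (difference -2.75 ± 0.49; with counts thinned to the smallest total it was -1.74 and not called). Wnt4 (difference -1.47 ± 0.17) and Bmp2 (-1.69 ± 0.28) rose in XY from 44.3 to 61.2 CPM and from 7.90 to 15.0 CPM, levels well below those of XX cells. Sp5, Lef1, Id1 and Id3, which fell in XX, had XY values of 1.00, 0.18, 0.07 and 0.05 on the log2 scale, none called, and all 4 differences were called. Cyp11a1 rose in XY from 27.7 to 41.7 CPM to 118 to 177 CPM, a difference of -3.18 ± 0.45 (FDR 1.23e-06), and Aplnr rose in XY while it fell in XX (-3.36 ± 0.44). Hsd3b6 fell in both sexes (XY log2 -4.00 ± 0.44), and a difference was not called (FDR 0.168).

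**Figure D5:**
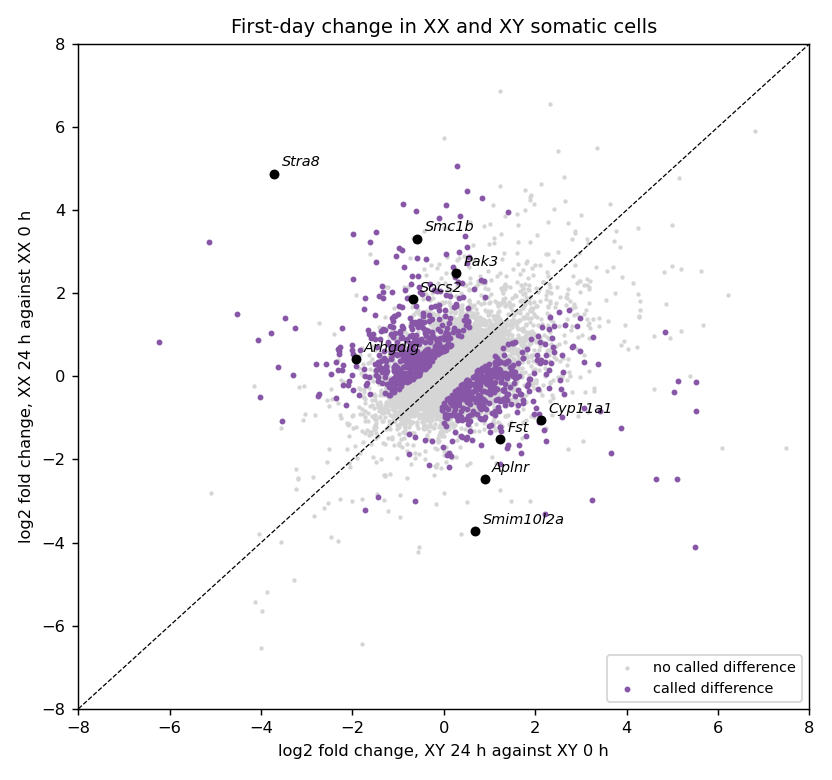
Log2 fold change over 24 h in XX somatic cells (vertical axis) against that in XY somatic cells (horizontal axis) for each gene tested; purple marks genes whose changes differed by the test of the difference, and the dashed line is equality. Stra8, Smc1b, Pak3, Socs2 and Arhgdig lie above the line, and Cyp11a1, Fst, Aplnr and Smim10l2a below it.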

How the data were processed

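RNA of GFP-negative gonadal somatic cells had been sequenced. The deposited values are whole counts per gene, which the authors made with scPipe and Rsubread: reads were aligned to GRCm39, assigned to exons by strand, counted once per UMI, and summed over 2 lanes. The published methods describe RNA extraction and library preparation for germ cells; for somatic cells these steps are not given in the sources used here. The processing notes also name edgeR and limma, which bear on later steps. No count was normalised or pooled. Groups came from the sample labels, and 1 column that matches no label was not used. All rows carried a gene identifier.

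Counts were tested with edgeR 4.0.16 in R 4.3.3 on 39 libraries in 10 groups (filterByExpr, TMM, quasi-likelihood test), which left 15390 of 42422 genes. Called genes had an FDR below 0.05 and at least a 1.5-fold change. CPM values use the TMM-scaled totals. Standard errors derive from the estimate and its F statistic, and so use the spread shared by all 10 groups. The method was tested on simulated data. Alternatives were other scalings and filters, DESeq2 1.42.0, glmTreat, voom with treat (limma 3.58.1, as in the study), other sets of libraries, thinned counts, a replicate block and each library left out.

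The members and gene lists were chosen with earlier results of these data known. Genes named are list members, the 15 largest increases and 15 largest decreases (at least 5 CPM at one time, no overlap), the 10 lowest FDRs of the XX and XY difference and the 10 most abundant genes. Counting intervals are exact at 95% and cover counting error only. Groups from other library sets (72 h) and inhibitor groups entered the fit but are not described. UMI counts of 1380707 to 3908704 per library leave genes of a few CPM with few counts each. Results for some genes and 1 promoter are not reported here.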

Additional observations from a re-analysis of the deposited data

Results flagged for a closer look

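In 20 of 366 groups of 4 libraries a library stood apart from the other 3 by a gap past Dixon's critical value. Independent, normally distributed values pass it in 1 of 20 groups. These groups come from the same libraries, so the share does not say whether any flag arose by chance. At 0 h the values were 251 CPM for Nr5a1 and 2.14 CPM for Upk1b in F2, 7.12 CPM for Pecam1 and 4.45 CPM for Lum in F3, and 24.8 CPM for Pax8 in F5. In 0 h F4 they were 0 for Stra8, 4.62 CPM for Rec8, 27.7 CPM for Gadd45b, 171 CPM for Igfbp2 and 39.3 CPM for Defb19. At 24 h the values were 10.4 CPM for Idi1, 7.29 CPM for Gpm6a and 66.3 CPM for Arhgdig in F4, and 178 CPM for Krt19 and 34.0 CPM for Nupr1 in F6. In 24 h F9 they were 272 CPM for Nr5a1, 9.07 CPM for Csf1r, 98.5 CPM for Pfkl, 0.394 CPM for Vgll2 and 138 CPM for Tmem184a.

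For 32 named genes the change over 24 h differed between XX and XY by edgeR's test of the difference, given here as XX minus XY on the log2 scale. Of genes named by the rule on this difference, the values were 2.68 for Chchd10, 2.53 for Socs2, 1.63 for Col18a1, 1.60 for Nopchap1, 2.21 for Pak3, 2.33 for Arhgdig, 2.29 for St3gal4, 2.54 for Tmem184a, 3.90 for Smc1b and 8.59 for Stra8. Among germ cell and meiotic genes they were also 2.30 for Dazl and 5.04 for Sycp1. Supporting cell, WNT and BMP genes gave 1.00 for Inha, -2.75 for Fst, -1.47 for Wnt4, -2.35 for Sp5, -0.88 for Lef1, -1.02 for Id1, -1.25 for Id3 and -1.69 for Bmp2. Steroidogenic genes gave 0.94 for Star, -1.20 for Hsd3b1, 0.68 for Scarb1 and -3.18 for Cyp11a1. Sertoli cell genes gave 2.53 for Mro, 1.70 for Nedd9 and 1.44 for Defb19. The remaining values were -1.46 for Hbb-bt, -3.36 for Aplnr, -1.35 for Cdkn1a, -1.56 for Col12a1 and -4.42 for Smim10l2a.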

How the results depend on the processing

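The number of genes called in XX (1168) was 364 with glmTreat, 215 with voom and treat and 514 with the replicate number as a block, and 992 to 1225 under the other settings. It was 958 to 1312 with a library left out. The number whose change differed between XX and XY (922) was 261, 120 and 513 under the same 3 settings, 676 to 1013 under the others and 781 to 962 with a library left out. The glmTreat and treat tests require more than 1.5-fold by construction. The difference in mitochondrial share (-0.181 percentage points) ranged from -0.242 to -0.102 with a library left out. Only F4 and F5 occur at both times, and their deviations correlated at 0.0716 and 0.0075, so the block rests on a shared number and no pairing was assumed. Under the block, F2 and F3 at 0 h and F6 and F9 at 24 h each have a term of their own. Its XX change therefore rests on F4 and F5 alone.

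Of 183 named genes 146 were called, and 0 of these reversed under any setting in which they were tested. A gene that did not pass the filter on low counts in a setting was left out of its tally. With only the XX 0 h and 24 h groups in the fit, 171 of the 183 kept their status and 2 gained a call. The rest were not tested there. Esr2 and Cyp11a1 lost the call with a library left out. Under another scaling or depth, Srebf2 (thinned counts) and Cyp11a1 (total counts, adjusted p 0.0674 by edgeR) lost it. glmTreat ended 44 calls, voom with treat 69 and the block 31. The first 2 require more than 1.5-fold, and the block leaves F4 and F5 alone to carry the XX change. Beyond these constructions the cause was not tested. Genes without a call changed sign: Gata4 with total counts (0.016), the block (0.024), thinned counts (0.011), without 0 h F5 (0.045) or 24 h F9 (0.031; -0.12 to 0.045 with a library left out), Xist without 24 h F5 (0.015; -0.14 to 0.015 with a library left out), Axin2 with the block (-0.12) or without 24 h F9 (-0.051; -0.051 to 0.16 with a library left out) and Sox9 with the block (0.072). Differences between XX and XY lost their call with a library left out for Star, Hbb-bt and Scarb1. Of these differences, glmTreat ended 7 calls, voom with treat 12, the block 4, thinned counts 2, DESeq2 1 and total counts 1. All these alternatives for the named genes' differences were chosen after seeing the data. Depth limits genes of a few CPM, and counts near the highest values varied little between libraries.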
